A study of Mus musculus with 4 samples.

Results

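The clusters described here are groups of integration sites made through the M880A form of the TAF3 PHD domain that hold no site made through the wild-type PHD domain. Sites of the PHD M880A library were chained along each chromosome, with both strands pooled and gaps of at most 2000 bp. Chains of 3 or more sites were kept, 500 bp were added on each side, and a region was taken when it contained 0 PHD WT sites. There were 93 such clusters among the 241 chains of 3 or more PHD M880A sites, which is 38.6% of them. They held 294 of the 34888 PHD M880A sites (0.843%). The clusters were chosen by the counts of both PHD libraries, so those counts are given as a description. The full-length libraries, the reads per site and the strands were not used by the rule.

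The sites come from HIT-seq, in which a chromatin protein carries the integrase-binding domain of LEDGF and the insertions of a vector built on HIV mark where that fusion was bound. The cells were mouse embryonic fibroblasts (strain C57BL/6, line E2), and every group carried the Psip1 (-/-) deletion. The groups were cells that received the PHD domain of TAF3 alone with M880A (PHD M880A), the PHD domain alone as wild type (PHD WT), full-length TAF3 with M880A (Full M880A) and full-length TAF3 as wild type (Full WT). Each group is 1 library from cells sorted for GFP after nucleofection, so nothing below has a replicate check, and the values compare libraries and not conditions. The fusion is expressed from a plasmid in a line without endogenous LEDGF, and the lists show where the vector integrated, not binding itself.

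TAF3 is a subunit of TFIID, the general transcription factor that helps to place RNA polymerase II at promoters. Its PHD finger is a small zinc-binding fold that binds trimethylated lysine 4 of histone H3, found on nucleosomes around active start sites. LEDGF/p75, the product of Psip1, normally ties HIV integrase to the bodies of transcribed genes, and in its absence a fusion that carries the integrase-binding domain can redirect the vector.

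The lists held 34888 PHD M880A, 25363 PHD WT, 39292 Full M880A and 22486 Full WT positions on 20 chromosomes, with medians of 23, 29, 24 and 41 reads per position. Full WT was alone on its flow cell and the other 3 libraries shared one. Intervals below are 95% intervals for counting error only, because amplified reads carry no molecular identifiers and neighbouring sites need not be independent events.

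The clusters were small. Of the 93, 84 had 3 sites, 7 had 4, 1 had 5 and 1 had 9. From first to last site they spanned 7 to 5185 bp, with a median of 1709 bp, compared with 1830 bp in the 148 chains that held a PHD WT site. With the added ends they covered 247 kb, which is 0.00960% of the 2570 Mb between the outermost sites. Of the 294 sites 47.6% lay on the plus strand, and in 31 clusters every site lay on 1 strand. All 31 were among the 84 clusters of 3 sites (36.9%, 27.4 to 47.6), and among the 72 chains of 3 sites with PHD WT there were 17 (23.6%, 15.3 to 34.6), with overlapping intervals. The reads summed over a cluster ran from 6 to 778, with a median of 111. A site of the clusters had a median of 17 reads and 15.0% (11.3 to 19.5) had the minimum of 2, against a median of 24 and 9.17% (7.22 to 11.6) in the chains with PHD WT. Over all PHD M880A sites these values were 23 reads and 10.2%. In 29 clusters every site had at least 10 reads.

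**Figure D1:**
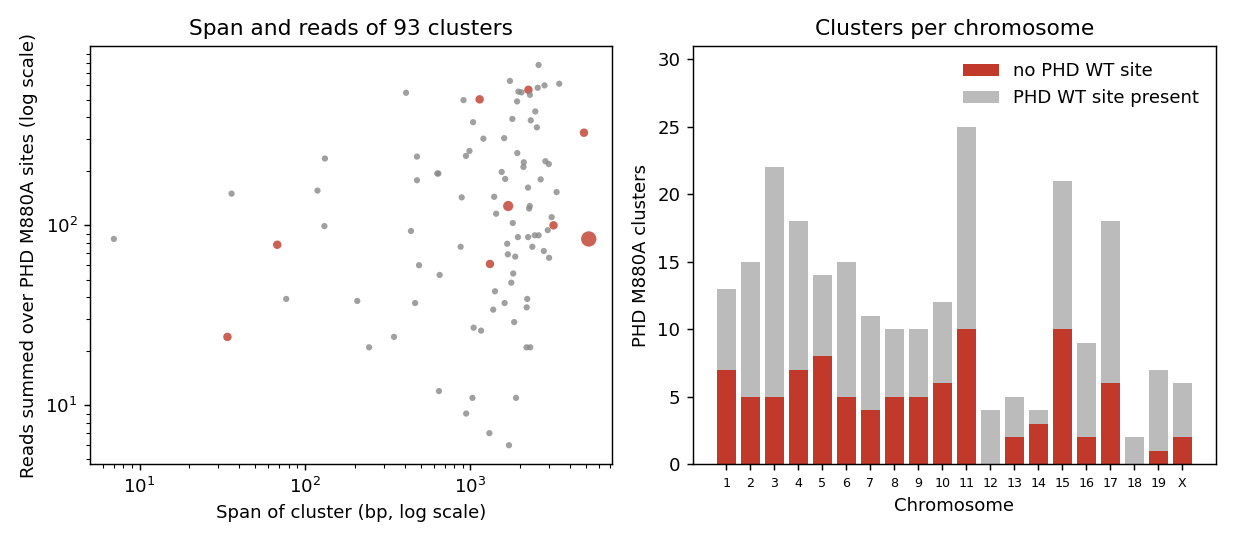
Left, span (bp) and summed reads of each of the 93 clusters, both on log scales, with grey points for 3 sites and red points, larger with more sites, for 4 to 9. Right, clusters per chromosome, with the 93 without PHD WT sites in red and the 148 with PHD WT sites in grey above them. Most clusters span more than 1 kb, and chromosomes 11 and 15 hold 10 of the 93 each.

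Some clusters reached 3 sites only by counting positions a few bases apart. The clusters contained 29 pairs of same-strand positions within 10 bp of each other, and in 28 of these (96.6%) the other ends of the listed fragments also lay within 10 bp. In the chains with PHD WT this held for 14 of 20 such pairs (70.0%), and over the whole PHD M880A list for 339 of 351 (96.6%, 94.1 to 98.0). For same-strand pairs 11 to 100 bp apart the whole-list share was 26.4% (19.5 to 34.7). When same-strand positions within 10 bp were merged, 71 of the 93 clusters kept 3 or more sites, 21 were left with 2 and 1 with 1. The 71 had a median span of 1918 bp and included the 29 clusters whose sites all had at least 10 reads. In 21 of the 71 (29.6%, 20.2 to 41.0) every site lay on 1 strand. One pair of sites in the clusters had the offset of 4 bp on opposite strands that a target site used in both orientations gives, compared with 5 in the chains with PHD WT.

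The share of regions without a PHD WT site was lower the more PHD M880A sites they had. Of 30274 lone PHD M880A sites 97.1% had no PHD WT site within the 500 bp added on each side, and of 1822 chains of 2 sites 84.9% (83.2 to 86.5). The share was 53.8% (46.0 to 61.5) of 156 chains of 3, 14.9% (7.41 to 27.7) of 47 chains of 4 and 5.26% (1.46 to 17.3) of 38 chains of 5 or more. Longer chains also cover more sequence. Of the 38 regions with the most PHD M880A sites, 2 were thus free of PHD WT sites. Just outside the rule lay 17 chains with exactly 1 PHD WT site and 1547 chains of 2 PHD M880A sites with none.

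The same procedure gave very different numbers in the other libraries. Chains of 3 or more sites took up 2.78% of the PHD M880A sites, 60.9% of the PHD WT sites, 16.3% of the Full M880A sites and 31.7% of the Full WT sites. Among the 2719 PHD WT chains, 1868 (68.7%, 66.9 to 70.4) held no PHD M880A site, although the PHD M880A list was longer.

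Being free of PHD WT sites did not place these clusters far from them. The distance from the outermost site of a cluster to the nearest PHD WT site ran from 578 bp to 1019707 bp, with a median of 14301 bp. Of the 93 clusters 9 (9.68%) had a PHD WT site within 1 kb, 35 (37.6%) within 5 kb and 70 (75.3%) within 50 kb. Within 5 kb the share was 14.5% for the 1547 PHD WT-free pairs and 8.10% for the 29408 PHD WT-free lone sites. A whole PHD WT chain of 3 or more sites lay within 5 kb of 14 clusters (15.1%, 9.18 to 23.7), against 6.59% (5.46 to 7.94) of the pairs and 3.00% (2.81 to 3.20) of the lone sites. After merging of same-strand positions within 10 bp, 27 of the remaining 71 clusters (38.0%) had a PHD WT site at 5 kb or less, and of the other 22 the share was 36.4%.

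**Figure D2:**
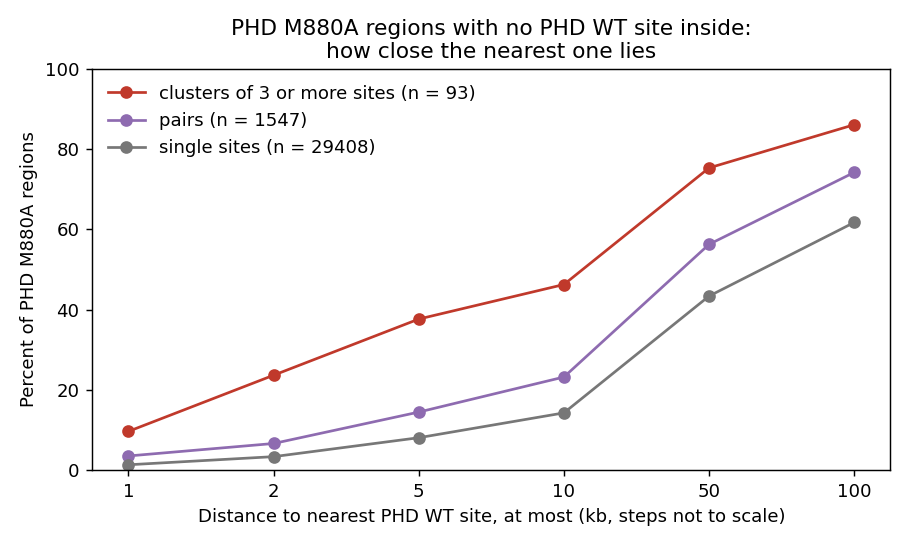
Percent of PHD M880A regions without a PHD WT site inside whose nearest PHD WT site lies within 1, 2, 5, 10, 50 and 100 kb (steps not to scale). Clusters of 3 or more sites (red, 93) lie above pairs (purple, 1547) and lone sites (grey, 29408) at every distance, with 37.6%, 14.5% and 8.10% within 5 kb.

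The density of PHD WT sites around the clusters was highest in the first 5 kb outside them, with no detectable maximum at the edge. Counted outward from the region edges, there were 0.151 PHD WT sites per kb (0.114 to 0.195) in the first 2 kb and 0.138 (0.109 to 0.172) from 2 to 5 kb. The value was 0.0806 (0.0634 to 0.101) from 5 to 10 kb, 0.0414 (0.0327 to 0.0517) from 10 to 20 kb and 0.0401 (0.0351 to 0.0458) from 20 to 50 kb. The mean density of this library over the genome was 0.00987 per kb. These sites came from a minority of clusters: 25 of the 93 had a PHD WT site in the first 2 kb outside the region, and 18 had one between 2 and 5 kb. Around PHD WT-free pairs the densities in the first 2 kb and from 20 to 50 kb were 0.0561 and 0.0253 per kb, and around lone sites 0.0219 and 0.0164. Around the 148 chains with PHD WT they were 0.527 and 0.0345, so a rise towards the edge was not particular to the clusters. Other PHD M880A sites had densities of 0.0681 per kb from 2 to 5 kb and 0.0262 from 20 to 50 kb.

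**Figure D3:**
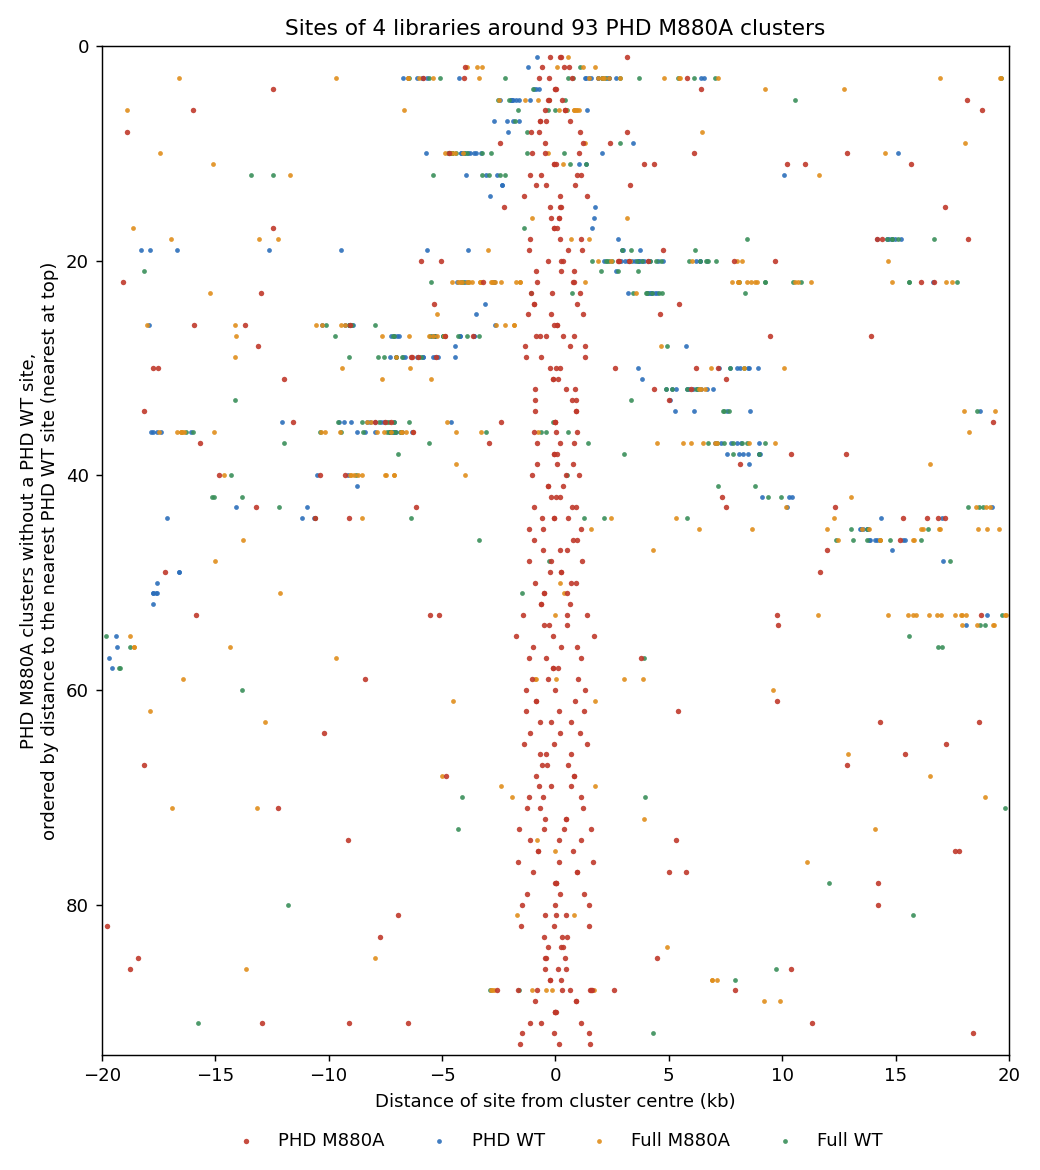
Sites of the 4 libraries within 20 kb of the centre of each of the 93 clusters, 1 row per cluster, with the clusters nearest to a PHD WT site at the top. The horizontal axis is the distance from the cluster centre in kb. Dense runs of PHD WT, Full M880A and Full WT sites lie beside many of the upper clusters, and most of the lower rows hold few sites other than those of the cluster.

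At the density of the flanks (from the region edge out to 50 kb, without any PHD M880A chain of 3 or more sites) the 247 kb of the clusters would hold 12.6 PHD WT sites in all, and at the genome mean 2.44. The 0 in the clusters is fixed by the rule. The 148 chains with PHD WT, which had nearly the same median span, held a median of 6 PHD WT sites, and at least 1 by definition. Their flanks out to 50 kb had 0.0504 PHD WT sites per kb on average, against 0.0509 for the clusters. The profiles within this distance differed. In the first 2 kb from the region edges the chains with PHD WT had 0.527 per kb against 0.151. From 5 to 10 kb they had 0.0257 against 0.0806.

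Full-length TAF3 had sites in a smaller share of the clusters than of all chains. The clusters held 37 Full M880A and 21 Full WT sites, where the genome means would give 3.77 and 2.16. Full M880A had a site in 20 of 93 clusters (21.5%, 14.4 to 30.9), where 57.7% of all 241 chains had one. Full WT had a site in 12 (12.9%, 7.54 to 21.2), where 58.5% of all chains had one. No site of either full-length library lay in 67 clusters (72.0%, 62.2 to 80.1), against 30.7% of all chains. Both full-length libraries had sites in 6 clusters, Full M880A alone in 14 and Full WT alone in 6. In the 148 chains with PHD WT the shares were 80.4% (73.3 to 86.0) for Full M880A and 87.2% (80.8 to 91.6) for Full WT. The 17 chains with exactly 1 PHD WT site stood between, with 9 holding a Full M880A site and 7 a Full WT site. The rule removed regions with PHD WT sites, and its part in the lower full-length shares was not tested. The regions were not matched for size: the clusters had a median of 3 PHD M880A sites and at most 9. The chains with PHD WT had a median of 4 and at most 32.

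Per kb, the clusters held more Full M880A sites than the flanks out to 50 kb. The Full WT difference was smaller, and both ratios depended on the setting. Full M880A had 37 sites in the clusters, 0.150 per kb, against 0.0513 per kb in the flanks, a ratio of 2.92 (2.03 to 4.09). Full WT had 21 sites, 0.0851 per kb, against 0.0457 in the flanks, a ratio of 1.86 (1.14 to 2.88). Without the cluster of 9 sites on chromosome 17, described below, the ratios were 2.40 (1.60 to 3.48) and 1.71 (1.02 to 2.71). The Full WT ratio was 0.917 (0.494 to 1.57) with 2000 bp added on each side, and 1.23 (0.489 to 2.58) when the clusters within 5 kb of a PHD WT site were left out. Over 16 alternatives the Full M880A ratio ran from 1.64 to 15.8 and the Full WT ratio from 0.906 to 4.27. Among sites with at least 10 reads they were 4.43 and 4.27. Next to the clusters Full WT was as dense as inside them, with 0.0968 sites per kb both in the first 2 kb outside the region and from 2 to 5 kb. Full M880A had 0.0995 (0.0700 to 0.137) and 0.0914 (0.0681 to 0.120) there. Both intervals overlapped that of Full M880A inside the clusters (0.106 to 0.207). In the chains with PHD WT the same ratios to the flanks were 16.3 (14.5 to 18.3) for Full M880A and 26.7 (23.8 to 29.9) for Full WT. The flanks were themselves rich in sites, at 3.36 times the genome mean for Full M880A, 5.22 times for Full WT, 5.16 times for PHD WT and 2.15 times for PHD M880A. By distance from the cluster centre, Full M880A had 0.183 sites per kb (0.106 to 0.293) within 500 bp and 0.124 (0.0784 to 0.186) from 1 to 2 kb. It had 0.102 (0.0774 to 0.132) from 2 to 5 kb and 0.0839 (0.0663 to 0.105) from 5 to 10 kb. Full WT had 0.0968, 0.0699, 0.113 and 0.0892 at these distances, with no maximum at the centre. The Full M880A interval within 500 bp overlapped those out to 5 kb. It narrowly missed that from 5 to 10 kb, with a lower limit of 0.106 against an upper limit of 0.105. Of the 17 Full M880A sites within 500 bp, 3 were positions within 10 bp in 1 cluster of chromosome 6. The interval was not computed with these counted once, so a maximum at the centre is not established. Within 500 bp of the centre of the chains with PHD WT the values were 0.946 for Full M880A and 1.34 for Full WT.

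**Figure D4:**
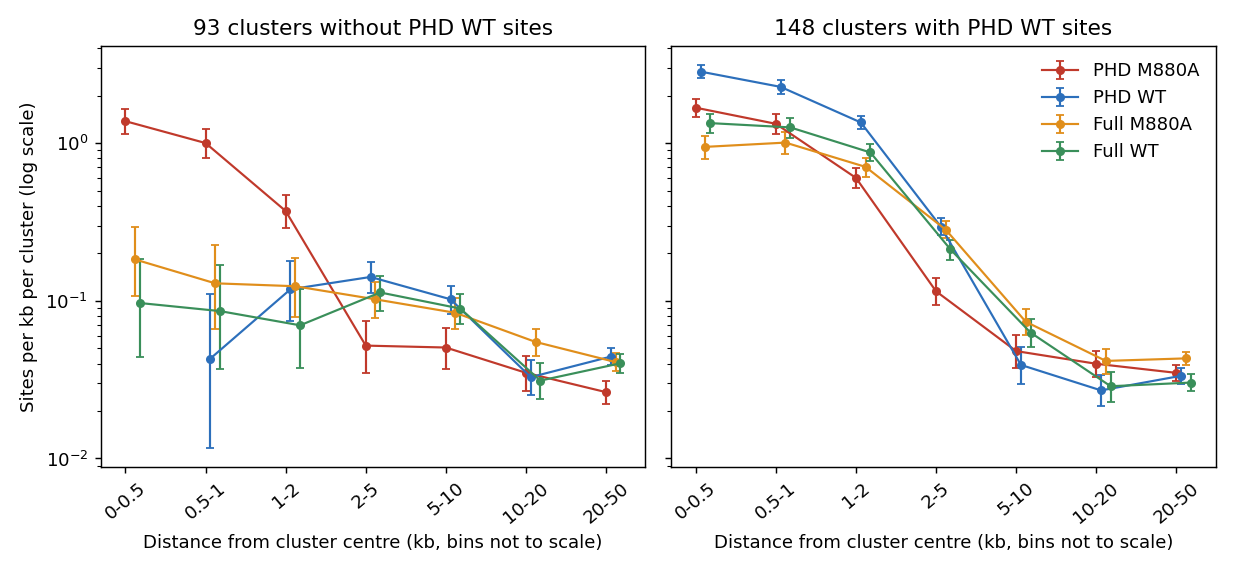
Sites per kb (log scale) of the 4 libraries by distance from the cluster centre, in bins that are not to scale, for the 93 clusters without PHD WT sites (left) and the 148 with them (right). Bars are exact 95% Poisson intervals, and a bin with 0 sites has no point. On the left the full-length points lie well below PHD M880A in the inner 1 kb, and on the right all 4 libraries are highest within 1 kb.

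The full-length densities followed the number of PHD M880A sites even where PHD WT was absent. Full M880A had 0.150 sites per kb (0.106 to 0.207) in the clusters, 0.0503 (0.0422 to 0.0595) in PHD WT-free pairs and 0.0269 (0.0251 to 0.0288) around PHD WT-free lone sites. Full WT had 0.0851 (0.0527 to 0.130), 0.0359 (0.0291 to 0.0438) and 0.0154 (0.0140 to 0.0169) in the same order. The intervals of the clusters did not overlap those of the pairs in either library. The surroundings rose in the same order. In the first 2 kb outside clusters, pairs and lone sites Full WT had 0.0968, 0.0410 and 0.0185 sites per kb. Each of these was above the Full WT value inside the regions. Full M880A had 0.0995, 0.0443 and 0.0263 there, each below its value inside. From 20 to 50 kb outside the regions Full M880A had 0.0389, 0.0290 and 0.0213 sites per kb around clusters, pairs and lone sites. The part of the surroundings in the order within the regions was not tested.

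**Figure D5:**
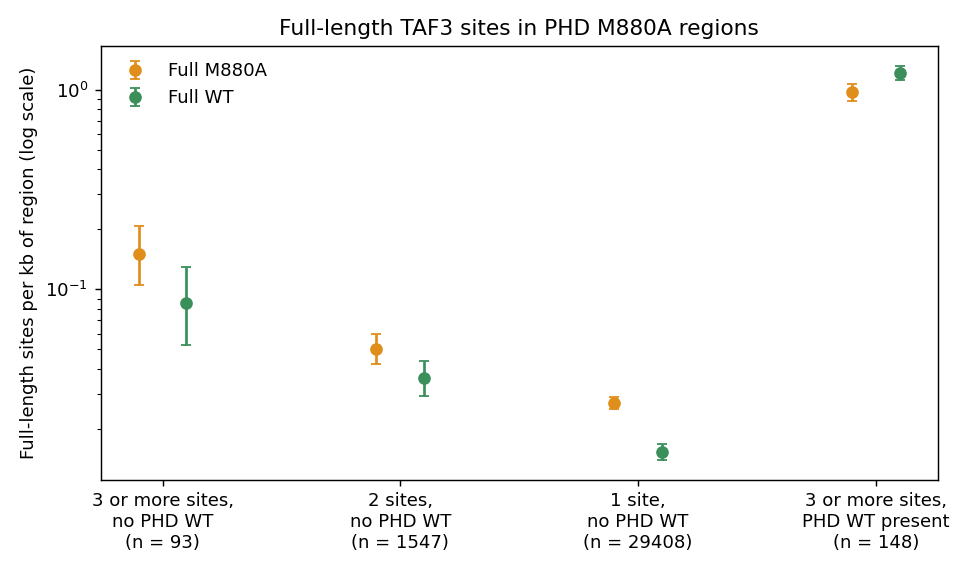
Full M880A (orange) and Full WT (green) sites per kb of region, on a log scale with exact 95% Poisson intervals, in PHD M880A regions of 3 or more sites, 2 sites and 1 site without PHD WT, and of 3 or more sites with PHD WT. The clusters without PHD WT lie above the pairs and lone sites and below the clusters with PHD WT, at 0.150 against 0.970 Full M880A sites per kb.

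Taken as shares of each library, the full-length forms did not differ detectably in the clusters. The clusters took up 0.0942% (0.0683 to 0.130) of the Full M880A list and 0.0934% (0.0611 to 0.143) of the Full WT list, a ratio of 1.01 (0.575 to 1.81). In the chains with PHD WT the shares were 1.13% (1.03 to 1.24) and 2.48% (2.28 to 2.69), a ratio of 0.457 (0.403 to 0.519). The odds ratio between the 2 kinds of region was 2.20 (1.24 to 4.02) from 37 and 21 against 445 and 557 sites, and 1.98 (1.06 to 3.77) without the chromosome 17 cluster. Of the 37 Full M880A sites, 3 lay within 10 bp in 1 cluster of chromosome 6 and were counted separately. The odds ratio was not computed without them. The 2 kinds of region were divided by their PHD WT sites, and the part of this division in the odds ratio was not tested. Full WT was sequenced separately, so in these ratios the flow cell cannot be told apart from the protein's sequence.

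The full-length counts were also compared between clusters near PHD WT sites and those apart from them. In the 35 clusters within 5 kb of a PHD WT site, Full M880A had 16 sites, 0.186 per kb (0.106 to 0.302), and Full WT 14, 0.163 per kb (0.0889 to 0.273). In the 58 clusters farther away, Full M880A had 21 sites, 0.131 per kb (0.0809 to 0.200), and Full WT 7, 0.0435 per kb (0.0175 to 0.0897). Without the chromosome 17 cluster the farther ones had 14 Full M880A sites and 5 Full WT sites, 0.0906 (0.0495 to 0.152) and 0.0323 (0.0105 to 0.0755) per kb. With the chromosome 17 cluster kept, the intervals of the near and the farther clusters overlapped for each library. For Full WT this overlap was narrow, with a lower limit of 0.0889 near and an upper limit of 0.0897 farther away. Without that cluster the Full WT intervals did not overlap, while those of Full M880A still did.

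The cluster with the most PHD M880A sites lay on chromosome 17 from 39980069 to 39986253 (mm9, as all coordinates here). Its 9 sites, 4 on the plus and 5 on the minus strand, were spread over 5185 bp and had 2, 39, 4, 19, 5, 6, 2, 2 and 5 reads along the chromosome. Full M880A had 7 sites there with 5 to 153 reads, and Full WT had 2 sites with 4 and 2 reads. None of the 9 PHD M880A positions recurred in another list. The surroundings were nearly empty: with 50 kb added on each side the counts were 10 PHD M880A, 0 PHD WT, 7 Full M880A and 3 Full WT sites, and the nearest PHD WT site was 291907 bp away. The 3 libraries with sites here thus shared a short stretch in an otherwise sparse neighbourhood, at low read numbers in PHD M880A and Full WT. Repeats and mappability of this stretch were not examined here, so the number of separate places in the genome behind these sites is not known.

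The cluster of 5 sites lay on chromosome 15 from 103075229 to 103077918. Its sites had 3, 68, 18, 11 and 28 reads, and no other library had a site inside. The nearest Full WT site was 2520 bp from its outermost site, the nearest PHD WT site 2734 bp and the nearest Full M880A site 4001 bp. With 50 kb on each side the window held 12 PHD M880A, 15 PHD WT, 10 Full M880A and 11 Full WT sites, so the cluster lay in a region that every library reached.

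The 7 clusters of 4 sites differed in their neighbourhood in the same way. The one on chromosome 9 from 108421614 to 108424853 had 44, 212, 65 and 245 reads and no full-length site, and its nearest PHD WT site was 1472 bp away. Its window with 50 kb on each side held 5 PHD M880A, 19 PHD WT, 7 Full M880A and 16 Full WT sites. The one on chromosome 11 from 3041669 to 3043804 had 16 PHD M880A, 8 PHD WT, 10 Full M880A and 10 Full WT sites in its window. By contrast, the one on chromosome 17 from 87618255 to 87622430 had 4, 0, 4 and 3 sites in the same order, and its nearest PHD WT site was 60995 bp away. The cluster that starts at 99550767 on chromosome 1 had a PHD WT site at 979 bp, and that starting at 30063391 on chromosome 5 had one at 962 bp. The remaining 2 spanned under 100 bp.

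Among the clusters with the most full-length sites, that on chromosome 16 from 44556496 to 44558380 had 3 PHD M880A sites, all on the plus strand, with 55, 75 and 13 reads. It held 6 Full M880A sites with 6 to 300 reads and 3 Full WT sites with 308, 276 and 88 reads, and the nearest PHD WT site was 959 bp away. On chromosome 6, positions 134848159 to 134851193 held 3 PHD M880A sites with 150, 128 and 270 reads, 3 Full M880A sites and no Full WT site. Positions 80646110 to 80649027 of chromosome 10 held 3 PHD M880A, 1 Full M880A and 3 Full WT sites, and with 50 kb on each side 12 PHD M880A, 34 PHD WT, 34 Full M880A and 32 Full WT sites. Positions 75548652 to 75550281 of chromosome 11 held 3, 2 and 2 sites of PHD M880A, Full M880A and Full WT, with a PHD WT site at 803 bp.

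At the edges of the distance range, the clusters nearest to a PHD WT site lay on chromosome 1 from 72871830 (578 bp), chromosome 5 from 140209284 (588 bp) and chromosome 19 from 5453381 (600 bp). The last of these had 41 PHD WT sites in its window with 50 kb on each side. The farthest lay on chromosome 1 from 26659776 to 26663869 (1019707 bp), chromosome 10 from 16654645 (755579 bp) and chromosome 14 from 37944261 (377948 bp). None of these 3 held a full-length site. The first had 3 minus-strand sites and no other PHD M880A site within 50 kb.

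Chains that spanned under 50 bp are given apart. There were 3 among the 241, and none of the 3 held a PHD WT site. On chromosome 6, positions 103599178 to 103599211 held 4 PHD M880A sites with 2, 7, 11 and 4 reads, and 3 Full M880A sites at the same place with 19, 7 and 2 reads, 2 of them at positions identical to PHD M880A sites. No Full WT site lay nearer than 150230 bp. On chromosome 4, positions 80566472 to 80566478 held 3 plus-strand sites with 2, 79 and 3 reads, whose fragments also ended within a few bases of each other. With the added ends this region held 1 Full WT site with 38 reads, 118 bp away, and no Full M880A site. On chromosome 3, positions 97819162 to 97819197 held 3 sites with 42, 2 and 106 reads on both strands. A further 2 clusters spanned 50 to 100 bp. Over all 294 sites of the clusters, 2 positions recurred in Full M880A and 1 in Full WT.

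The clusters were spread over 18 of 20 chromosomes, with 2.67 per 1000 PHD M880A sites on the whole genome. Chromosome 15 had 10, which is 5.70 per 1000 sites (2.73 to 10.5), and chromosome 11 had 10, 4.43 per 1000 (2.13 to 8.16). Chains of 3 or more sites of either kind numbered 21 on chromosome 15 and 25 on chromosome 11, so the chains with PHD WT were frequent there too. Chromosomes 12 and 18 had none of the 93 clusters, among 1226 and 984 PHD M880A sites, with upper limits of 3.01 and 3.75 per 1000, and held 4 and 2 chains with PHD WT. The interval of chromosome 15 was the only one that left out the genome value, and it was not adjusted for the number of chromosomes. No cluster lay within 100 kb of another, and 6 neighbouring pairs lay within 1 Mb.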

How the data were processed

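The authors deposited 1 list of integration sites from paired-end reads per library, per the file headers, as BED files. The deposited score, 0 throughout, was left aside. The number after each read name was taken as the reads of a site, from its values only, and is at least 2. The submitters' processing notes name the build mm9 and MACS 1.4.2, without saying what MACS did. For the aligner and filters, no name is given in the sources used here. Groups came from the sample characteristics.

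The junction was the start + 1 on the plus strand and the end on the minus strand, and lines that agreed in chromosome, strand and junction counted once. Clusters, pairs and lone sites were chained from the PHD M880A list without thinning. Shares have Wilson intervals, densities exact Poisson intervals, and ratios exact conditional binomial intervals. Flanks leave out every chain of 3 or more sites. No p-value over regions is given. The rule for the regions named took the 10 with the most PHD M880A sites, the 10 with the most Full M880A sites, the 5 with the most Full WT sites, those under 50 bp, and the 3 nearest to and 3 farthest from a PHD WT site, of which the text gives a part. The clusters, the rule and the comparisons were chosen with earlier results of these data known. The near-identical positions, the distance classes and the full-length densities of pairs and lone sites were examined after the lists had been seen. No mm9 genome or annotation was used here, so genes and sequences of the clusters were not analysed. The code was tested on simulated data. Calculations used Python 3.11.15, numpy 2.4.6, pandas 2.3.3 and scipy 1.17.1.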

Additional observations from a re-analysis of the deposited data

How the results depend on the processing

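Of 148 recomputed values, 100 stayed within the interval of the reported value (for counts, within 1.5 times), 46 moved and 2, both Full WT ratios to the flanks with a reported interval above 1, fell below 1. The ratio of full-length shares, 1.01 with an interval that holds 1, ran from 0.660 to 2.10 and lay on either side of 1. The number of clusters followed the definition most closely. With gaps of at most 1000 bp there were 44 clusters, which were 28.9% of the chains. Full M880A density was then 5.12 times and Full WT density 3.24 times that of the flanks, and the clusters held 0.0585% of the Full M880A sites. With gaps of at most 5000 bp there were 321, which were 51.4% of the chains, with ratios to the flanks of 1.67 for Full M880A and 1.16 (0.886 to 1.51) for Full WT. The clusters then took up 0.267% of the Full M880A list. With 4 or more sites there were 9 clusters (10.6% of chains, 1 under 50 bp), 33.3% with a Full M880A and 22.2% with a Full WT site, a Full M880A ratio to the flanks of 10.1, 0.0280% of the Full M880A sites and a ratio of full-length shares of 2.10. With 5 or more sites there were 2 (5.26% of chains, 0 under 50 bp), and the values were 50%, 50%, 15.8, 0.0178% and 2.00, with a Full WT ratio to the flanks of 3.76 and 50% without a full-length site. Those counts allow little to be said.

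With 0 bp added on each side 46.5% of chains had no PHD WT site. With 2000 bp added it was 29.5%, the Full M880A ratio to the flanks was 1.64, and the Full WT ratio turned to 0.917. Among sites with at least 10 reads there were 36 clusters, 0 of them under 50 bp, and 27.8% held a Full WT site and 58.3% no full-length site. The ratios to the flanks were then 4.43 for Full M880A and 4.27 for Full WT. With every library thinned in 1 draw to the smallest list there were 24 clusters (25.3% of chains, 1 under 50 bp) with 0.0222% of the Full M880A sites. The ratios were 1.99 (0.632 to 4.80) for Full M880A and 0.906 (0.184 to 2.71) for Full WT, so that both intervals held 1. The cause was not tested, and fewer sites enter by construction. Merging same-strand positions within 10 bp, or positions on either strand, left 1 chain under 50 bp.

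Alternatives chosen after seeing the data left out the chromosome 17 cluster of 9 sites, which moved no value beyond its interval, and the clusters within 5 kb of a PHD WT site. Without these there were 58 clusters, 6.90% with a Full WT site and 0.0534% of the Full M880A sites, and a Full WT ratio to the flanks of 1.23 (0.489 to 2.58). With flanks out to 20 kb that ratio was 1.47 (0.891 to 2.30) for the 93 clusters. No paired analysis was possible because each group has 1 library. List length limits every count of 0: a cluster without a full-length site may have had one in a longer list.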
